A study of Mus musculus with 66 samples.

Results

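Formalin fixation was examined in normal mouse urothelium, the epithelium lining the bladder, at an RNA input of 50 pg per library. The comparison set 3 libraries from formalin-fixed, paraffin-embedded material (FFPE) against 3 libraries from fresh frozen material (FF), chosen by their titles from the 66 libraries of the series. All of them were made with the Ovation SoLo kit, which starts from random priming of total RNA and depletes ribosomal sequences. All genes of the count table were taken: it lists 39179 genes, of which 21119 had a count in at least 1 of the 6 libraries and 13413 passed the filter on low counts and were tested. The urothelium came from 9 mice, no strain, age or treatment of which is given in the labels. The tissue of each mouse was split, 1 piece being held in buffered formalin for 24 hours and embedded in wax and the other frozen in liquid nitrogen. Total RNA was extracted with RNeasy FFPE from FFPE slices and with RNeasy mini from FF tissue, so preservation and extraction kit cannot be told apart. The labels say neither how material of the 9 mice was combined nor that the 3 libraries of a group came from separate RNA samples. The p-values therefore measure the spread between these libraries, which may be technical.

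Formaldehyde adds methylol groups to the bases of RNA and links RNA to protein, and fixed tissue yields RNA broken into short pieces with damaged ends. Random primers can copy such pieces and also RNAs without a poly(A) tail. Total RNA libraries therefore contain, beside messenger RNA, the small structured RNAs of the nucleus and cytoplasm. Among these are the spliceosomal snRNAs, which recognise splice sites; the snoRNAs, which guide modification and processing of ribosomal RNA; and the Y RNAs, which are bound by the Ro60 protein.

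Total counts were 2985318, 4067831 and 3466780 in the FFPE libraries and 3074782, 3403769 and 2547239 in the FF libraries. Levels are given as CPM, which sets each count against its library's total after scaling by the TMM method. All 14 genes checked as markers of urothelium, among them 5 uroplakins, had counts in both groups and were tested. In the edgeR quasi-likelihood test, 534 genes passed an adjusted p of 0.05 (3.98% of those tested). Of these, 313 were higher in FFPE (2.33%) and 221 were lower (1.65%), and 317 of the 534 differed by at least 2-fold (2.36%). At an unadjusted p under 0.05 there were 2051 genes (15.3%). The median log2 fold change of FFPE over FF over all genes was 0.03. The FFPE and FF libraries did not overlap for 1512 genes that were higher in FFPE (11.3%) and for 1481 that were lower (11.0%), and 532 of the 534 called genes were among them. The count of calls fell to 336 without FFPE library 3, and to 281, 265 and 297 without FF library 1, 2 and 3. Of the 534 calls, 192 stood in all 6 fits with 1 library left out, 116 of them higher and 76 lower.

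Many small noncoding RNAs rose. Of 213 tested genes annotated as snRNA, snoRNA, scaRNA, ribozyme or other small RNA, 53 were higher and 2 were lower in FFPE, and their median log2 fold change was 1.39, beside 0.03 for all genes. Setting the 3 of them without a count in 1 group to the bound their counts allow left the median at 1.39. By type, 14 of 29 snRNA genes, 31 of 135 snoRNA genes and 2 of 13 scaRNA genes rose, and none of these fell. Of the class, 956 genes had a count in the 6 libraries and 213 were tested. Some, such as Rnu12 (1087 counts in FFPE, 5 in FF) and Snord118 (274 and 16), passed the low-count filter only through FFPE. The numbers that rose and the median therefore depend in part on the filter. The sequences of 3 RNAs that rose are shown because they stand for the kinds of small RNA concerned: the minor spliceosome snRNA U12, the box C/D snoRNA U8 and a Y RNA. Capitals mark, in Rnu12, an A, a run of T and a G of the kind bound by Sm proteins (ATTTTTG), in Snord118 the letters of the C box (TGATGA) and D box (CTGA) wherever they occur, and in Rny1 the T run at the end (TTTT), where RNA polymerase III stops. Sequences are those of GENCODE M21 transcripts on GRCm38 (mm10), read 5′ to 3′ as DNA on the transcribed strand, the strand searched for motifs. Rnu12 lies at chr15:83149644-83149794, plus strand, Snord118 at chr11:69073427-69073561, plus strand and Rny1 at chr6:47788069-47788180, minus strand.
Rnu12: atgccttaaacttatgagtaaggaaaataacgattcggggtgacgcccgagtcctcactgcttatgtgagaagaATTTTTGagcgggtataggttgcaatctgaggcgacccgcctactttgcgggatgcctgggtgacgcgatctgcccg
Snord118: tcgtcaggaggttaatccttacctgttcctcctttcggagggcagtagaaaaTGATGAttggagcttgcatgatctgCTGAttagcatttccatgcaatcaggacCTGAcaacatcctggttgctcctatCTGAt
Rny1: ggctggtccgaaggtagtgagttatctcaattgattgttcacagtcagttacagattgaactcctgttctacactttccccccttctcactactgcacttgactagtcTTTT
These transcripts are 151 (Rnu12), 135 (Snord118) and 112 nt long (Rny1). The Sm-type letters occur in 3.33% of 1383 annotated snRNA transcripts, the C box letters in 26.1% and the D box letters in 79.5% of 1507 snoRNA transcripts, and the final T run in 2.83% of 566 transcripts of the other small RNA type.

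Rnu12 had 85.2, 104 and 128 CPM in the FFPE libraries, against 0.321, 0.580 and 0.775 CPM in the FF libraries (log2 fold change 7.49 ± 0.54 (SE), adjusted p = 2.76e-08). The FF libraries were near the level of a single read, with 5 counts over all 3 libraries against 1087 in FFPE. Rnu5g, a gene of the major spliceosome snRNA U5, had 75.8, 60.9 and 123 CPM in the FFPE libraries, against 1.60, 0.290 and 1.55 CPM in the FF libraries (log2 fold change 6.23 ± 0.60 (SE), adjusted p = 1.39e-06), and its groups were likewise far apart. U5 has several gene copies, between which reads may have been split, so the value of 1 copy is uncertain. Rnu11, the other snRNA of the minor spliceosome among the genes followed, had 13.5, 13.97 and 30.8 CPM in the FFPE libraries, against 3.53, 2.03 and 0.775 CPM in the FF libraries and missed the threshold (adjusted p = 0.0847).

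Among snoRNAs named by rule, with symbols other than Gm numbers, the largest rises were those of Rnu3a, a copy of U3, Snord118, Snora28 and Snora64. Rnu3a, which acts in early cleavage of the ribosomal RNA precursor, had 111, 90.6 and 174 CPM in the FFPE libraries, against 15.1, 4.35 and 1.94 CPM in the FF libraries (log2 fold change 4.11 ± 0.53 (SE), adjusted p = 6.77e-05). Snord118, which is needed for processing of 5.8S and 28S rRNA, had 34.3, 16.7 and 32.6 CPM in the FFPE libraries, against 0.962, 2.61 and 1.55 CPM in the FF libraries (log2 fold change 3.99 ± 0.83 (SE), adjusted p = 0.00817). Snora28 had 59.2, 61.9 and 118 CPM in the FFPE libraries, against 7.38, 5.22 and 3.10 CPM in the FF libraries (log2 fold change 3.91 ± 0.50 (SE), adjusted p = 5.45e-05). In all 3 the lowest FFPE library was above the highest FF library by a wide margin. Snora64 had 15.6, 35.2 and 33.8 CPM in the FFPE libraries, against 4.49, 0 and 1.94 CPM in the FF libraries (log2 fold change 3.71 ± 0.98 (SE), adjusted p = 0.0397), a call that stood in only 2 of the 6 fits with 1 library left out. Among snoRNAs with an Snora symbol, the H/ACA type that guides pseudouridylation, 10 of 31 rose with a median log2 fold change of 2.07, and among those with an Snord symbol, the C/D type that guides 2′-O-methylation, 9 of 33 rose with a median of 1.28. The difference between both types was not tested.

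The RNA polymerase III transcripts did not move together. Rny1 had 1675, 1369 and 2362 CPM in the FFPE libraries, against 208, 163 and 154 CPM in the FF libraries (log2 fold change 3.36 ± 0.18 (SE), adjusted p = 2.20e-10), and Rny3 had 1643, 1275 and 2239 CPM in the FFPE libraries, against 579.8, 391 and 358 CPM in the FF libraries (log2 fold change 1.96 ± 0.18 (SE), adjusted p = 1.08e-06). Vaultrc5, an RNA of the vault particle, had 302, 279.7 and 345 CPM in the FFPE libraries, against 51.6, 25.5 and 34.9 CPM in the FF libraries (log2 fold change 3.05 ± 0.25 (SE), adjusted p = 1.74e-07). In all 3 every FFPE library was above every FF library, and the margin was narrowest for Rny3. Rn7sk, the 7SK RNA that holds the elongation factor P-TEFb inactive, went the other way, with 11073, 11561 and 10522 CPM in the FFPE libraries, against 18987, 20800.4 and 29481 CPM in the FF libraries (log2 fold change -1.06 ± 0.10 (SE), adjusted p = 1.08e-06). Rmrp, the RNA of RNase MRP, had 3369, 3336 and 3265 CPM in the FFPE libraries, against 3846, 3383 and 3224 CPM in the FF libraries and Rpph1, the RNA of RNase P, had 1864, 1635 and 1573 CPM in the FFPE libraries, against 1886, 1704 and 2024 CPM in the FF libraries. The groups overlapped for both (adjusted p = 0.757 for Rmrp and 0.519 for Rpph1). Larp7, whose protein binds and stabilises 7SK RNA, was also among the largest falls, with 2.08, 2.25 and 3.32 CPM in the FFPE libraries, against 35.3, 9.57 and 26.7 CPM in the FF libraries (log2 fold change -3.21 ± 0.86 (SE), adjusted p = 0.0418). That call was lost with any 1 of the 6 libraries left out.

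The 5S rRNA gene n-R5s124 had 1782, 1768 and 2875 CPM in the FFPE libraries, against 83.1, 65.3 and 87.96 CPM in the FF libraries (log2 fold change 4.77 ± 0.19 (SE), adjusted p = 3.49e-12), and n-R5s193 had 185, 106 and 172 CPM in the FFPE libraries, against 5.45, 2.90 and 1.94 CPM in the FF libraries (log2 fold change 5.46 ± 0.42 (SE), adjusted p = 7.19e-08). The 5S rRNA has many gene copies, and the counts of n-R5s124 were nearly repeated at Gm25018, another gene annotated as rRNA. The counts of n-R5s124 were 5145, 7085 and 9522 in FFPE and 259, 225 and 227 in FF, and those of Gm25018 were 5144, 7085 and 9522 in FFPE and 259, 225 and 227 in FF. These genes cannot be told apart in the counts, and n-R5s193 shares bases with another gene model. A similar near-equality held for Rmrp and Ccdc107, which overlap on opposite strands: Rmrp had 9729, 13368 and 10811 counts in FFPE and 11994, 11663 and 8321 in FF, while Ccdc107 had 9391, 12921 and 10208 counts in FFPE and 11928, 11598 and 8271 in FF. The kit is strand specific, but the use of strand in counting is not given in the sources used here, so reads of overlapping genes on opposite strands cannot be told apart.

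**Figure D1:**
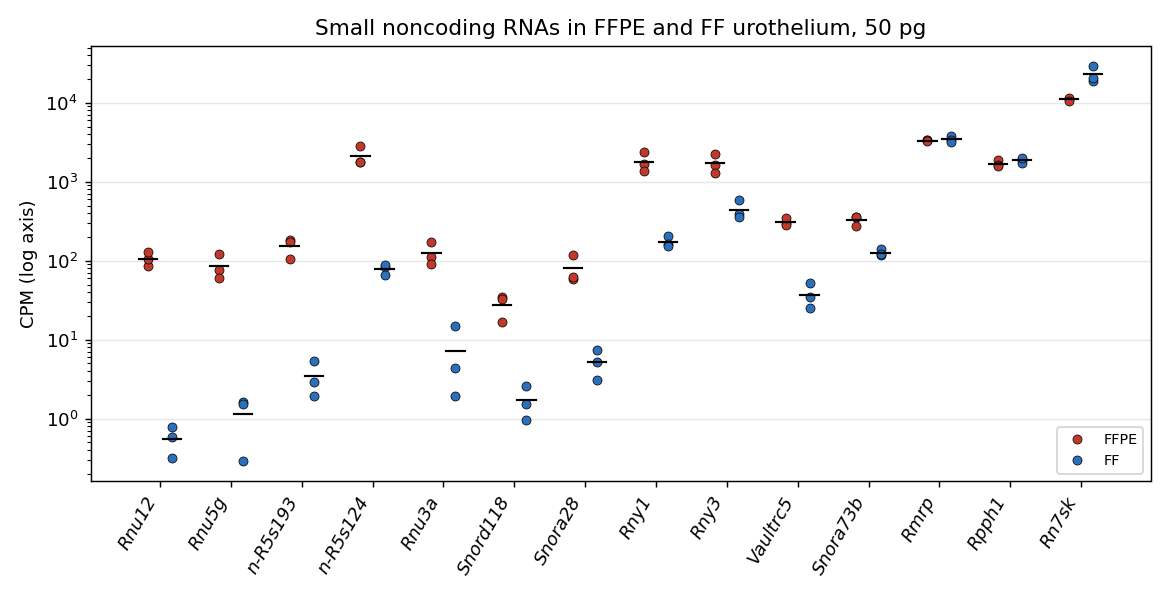
CPM of 14 small noncoding RNAs in the 3 FFPE (red, left) and 3 FF (blue, right) libraries of urothelium at 50 pg; points are libraries, bars are means and the axis is logarithmic. The FFPE libraries lie above the FF libraries for the first 11 genes, the groups overlap for Rmrp and Rpph1, and Rn7sk lies lower in FFPE.

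Gene models that overlap ribosomal or satellite repeats included several of the largest rises. Of 17 such models 8 were tested. Of these, 4 rose and 1 fell, with a median log2 fold change of 4.44, or 2.90 with the 2 genes without an FF count at their bound. Gm10800, Gm10801, Gm21738 and Gm26870 had 10, 0, 1 and 0 counts over the FF group and passed the low-count filter only through FFPE. Either median therefore depends on the filter and does not describe all 17 models. Gm10800 had 225, 135 and 299.9 CPM in the FFPE libraries, against 1.28, 1.16 and 0.775 CPM in the FF libraries (log2 fold change 7.60 ± 0.43 (SE), adjusted p = 6.88e-10). Gm10801 had 16.97, 14.5 and 25.7 CPM in the FFPE libraries and no count in FF, which makes it at least 57.4-fold higher against a floor of 3 counts over the FF group. Gm21738 had 10.04, 31.7 and 21.4 CPM in the FFPE libraries, against 0, 0 and 0.388 CPM in the FF libraries, with 227 counts in FFPE and 1 in FF, a ratio of 203 (95% counting interval 36.1 to 8069). For these 3 every FFPE library was above every FF library. The call of Gm21738 was lost without FFPE library 2, and limma on the deposited log2 values called neither Gm10801 nor Gm21738 (adjusted p = 0.0708 for Gm10801 and 0.0668 for Gm21738). The models Gm26917 and Gm42418 lie close together on chromosome 17 and moved in opposite directions: Gm26917 had 5695, 5478 and 5276 CPM in the FFPE libraries, against 1839, 1648 and 1386 CPM in the FF libraries (log2 fold change 1.75 ± 0.09 (SE), adjusted p = 1.69e-10), and Gm42418 had 28328, 26969 and 32532 CPM in the FFPE libraries, against 35812, 38183 and 33433 CPM in the FF libraries (log2 fold change -0.29 ± 0.05 (SE), adjusted p = 0.00252). Repeats have many near-identical copies, between which reads may have been split, so these values are uncertain.

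As a share of all counts, the 5S-type rRNA genes took 0.373%, 0.366% and 0.578% in the FFPE libraries, against 0.0190%, 0.0159% and 0.0203% in the FF libraries. This sum counts the near-equal n-R5s124 and Gm25018 both; without Gm25018 it was 0.200%, 0.192% and 0.303% in FFPE and 0.0106%, 0.00925% and 0.0114% in FF. Small noncoding RNAs as a whole took 4.30%, 4.11% and 4.81% in FFPE and 3.80%, 3.70% and 4.49% in FF, ranges that overlap, and this sum includes Rn7sk. Mitochondrial rRNA took 5.88%, 5.38% and 6.33% of FFPE counts, against 3.77%, 3.69% and 2.92% of FF counts. The sum of mitochondrial tRNA went the other way, with 0.300%, 0.262% and 0.264% in FFPE and 0.394%, 0.430% and 0.449% in FF. This tRNA sum includes mt-Ty, which alone had 10663 counts in FFPE and 25767 in FF. Of 21 tested tRNA genes, 13 had a positive and 8 a negative log2 fold change, with a median of 0.44. The repeat-like models took 3.54%, 3.44% and 3.88% in FFPE and 4.08%, 4.28% and 3.69% in FF, with overlapping groups. Long noncoding RNAs averaged 4.24% ± 0.03 in FFPE and 3.30% ± 0.03 in FF, and nuclear protein-coding genes averaged 72.8% ± 1.1 in FFPE and 77.5% ± 0.1 in FF (SD, n = 3 each). In a two-sided exact permutation test, p was 0.1 for each of the 7 classes whose groups did not overlap, the smallest p that 3 against 3 libraries can give, and 0.129 after adjustment over 9 classes.

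Of 36 tested genes of the mitochondrial genome, which is transcribed as long precursors, 13 rose, 1 fell and 22 were not called. Both rRNAs rose: mt-Rnr2, of the large subunit, had 39614, 36044 and 42924 CPM in the FFPE libraries, against 24101, 23585 and 18739.7 CPM in the FF libraries (log2 fold change 0.84 ± 0.07 (SE), adjusted p = 1.58e-07), and mt-Rnr1 rose by 0.81 (adjusted p = 1.76e-06) on the log2 scale. Of the 13 protein-coding genes, 9 rose and 0 fell, with a median log2 fold change of 0.43. The larger rises were those of mt-Co2 and mt-Atp6, which had few counts for this genome. Over each group, mt-Co2 had 1442 counts in FFPE and 365 in FF, and mt-Atp6 had 2754 and 1000. By comparison, mt-Nd5 had 109137 counts in FFPE and 72557 in FF. The cause of the low counts was not tested. Mt-Co2, a subunit of cytochrome c oxidase, had 122, 127 and 175 CPM in the FFPE libraries, against 46.2, 36.3 and 37.2 CPM in the FF libraries (log2 fold change 1.83 ± 0.28 (SE), adjusted p = 0.000524). Mt-Atp6, a subunit of ATP synthase, had 271, 216 and 333 CPM in the FFPE libraries, against 122, 103 and 102 CPM in the FF libraries (log2 fold change 1.33 ± 0.21 (SE), adjusted p = 0.000549). Mt-Co1, another subunit of that oxidase, had 20141, 18594 and 19273 CPM in the FFPE libraries, against 19990.0, 20281 and 21580.2 CPM in the FF libraries, with overlapping groups (adjusted p = 0.242). Among 21 tested mitochondrial tRNAs, 2 rose and 1 fell; the one that fell, mt-Ty, had 1042, 1060.0 and 1028 CPM in the FFPE libraries, against 2565, 2833 and 3100.4 CPM in the FF libraries (log2 fold change -1.44 ± 0.09 (SE), adjusted p = 2.32e-09).

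Some long noncoding RNAs of the nucleus were higher in FFPE. Of 8 tested, 3 rose and 0 fell. Neat1, the scaffold of paraspeckles, had 1684, 1655 and 1407 CPM in the FFPE libraries, against 477, 527 and 482 CPM in the FF libraries (log2 fold change 1.68 ± 0.11 (SE), adjusted p = 6.47e-09). Malat1, which resides in nuclear speckles, had 22339.8, 21744 and 22615 CPM in the FFPE libraries, against 15837, 16389 and 16622 CPM in the FF libraries (log2 fold change 0.45 ± 0.03 (SE), adjusted p = 6.67e-08). Airn, an imprinted antisense RNA of the Igf2r locus, had 47.1, 65.6 and 46.5 CPM in the FFPE libraries, against 13.1, 9.28 and 21.3 CPM in the FF libraries (log2 fold change 1.87 ± 0.47 (SE), adjusted p = 0.0322), but was called in only 1 of the 6 fits with a library left out. Neat1 and Malat1 were called in all 6. The groups overlapped for Tug1, with 251, 212 and 256 CPM in the FFPE libraries, against 295, 227 and 260.0 CPM in the FF libraries (adjusted p = 0.84).

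Among nuclear protein-coding genes, the change with fixation varied with transcript length. Of 739 tested genes whose longest annotated transcript has 8000 nt or more, 87 rose and 3 fell in FFPE, with a median log2 fold change of 0.39. Of 413 genes with a longest transcript under 1000 nt, 5 rose and 18 fell, with a median of -0.25, and of 1687 genes with 1000 to 2000 nt, 6 rose and 53 fell. Spearman's rho between length and log2 fold change was 0.22 over 11745 protein-coding genes, a description across genes that share the same 6 libraries. For the span of the gene on the chromosome rho was 0.20 over 11750 genes, and length and span were not separated. Longer genes also had more counts. Within each range of mean CPM the median was highest at 8000 nt or more, but the shortest class was not always lowest. At 20 to 50 CPM the median was -0.46 under 1000 nt and 0.36 at 8000 nt or more. At 100 CPM and over it was -0.21 under 1000 nt, -0.43 at 1000 to 2000 nt and 0.39 at 8000 nt or more. At 50 to 100 CPM the 30 genes under 1000 nt had a median of 0.02 and those of 8000 nt or more one of 0.38. This split by level and the shares that follow were added after the data were seen. Transcripts of 8000 nt or more took 14.6%, 14.6% and 14.8% of the protein-coding counts in FFPE libraries, against 10.97%, 10.95% and 11.2% in FF libraries. Those of 1000 to 2000 nt took 10.95%, 11.01% and 11.1% in FFPE, against 13.7%, 13.97% and 13.6% in FF. Neither pair of groups overlapped (two-sided exact permutation p = 0.1, the smallest possible). By GC content, the median ran from 0.11 in genes under 40% GC to -0.13 in genes of 55% or more.

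Examples of long transcripts, picked after their values were seen, include regulators of transcription and signalling. Zbtb20, a zinc finger repressor, had 1127, 1058 and 1186 CPM in the FFPE libraries, against 326, 394 and 341 CPM in the FF libraries (log2 fold change 1.67 ± 0.12 (SE), adjusted p = 3.77e-08). Nfat5, the transcription factor of the response to hypertonicity, had 1292, 1466 and 1566 CPM in the FFPE libraries, against 605, 566 and 656 CPM in the FF libraries (log2 fold change 1.24 ± 0.11 (SE), adjusted p = 5.09e-07). Ptch1, the Hedgehog receptor, had 265, 253 and 302 CPM in the FFPE libraries, against 93.6, 109.7 and 103 CPM in the FF libraries (log2 fold change 1.42 ± 0.19 (SE), adjusted p = 0.000104). Of 20 chromatin regulators tested, 3 rose and 0 fell, and all 3 are large H3K4 methyltransferases. Kmt2a had 388, 426 and 384 CPM in the FFPE libraries, against 166, 179 and 198 CPM in the FF libraries (log2 fold change 1.14 ± 0.16 (SE), adjusted p = 0.000164); Kmt2c rose by 1.09 (adjusted p = 0.000151) and Kmt2d by 0.89 (adjusted p = 0.00646) on the log2 scale. Each was called in all 6 fits with a library left out. Hdac1 had 8.66, 19.7 and 33.8 CPM in the FFPE libraries, against 50.3, 35.1 and 41.9 CPM in the FF libraries, and missed the threshold (adjusted p = 0.36). Of 289 zinc finger genes 5 rose and 0 fell, beside 2.33% and 1.65% of all tested genes. Their median was 0.10, with 159 positive and 130 negative log2 fold changes.

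**Figure D2:**
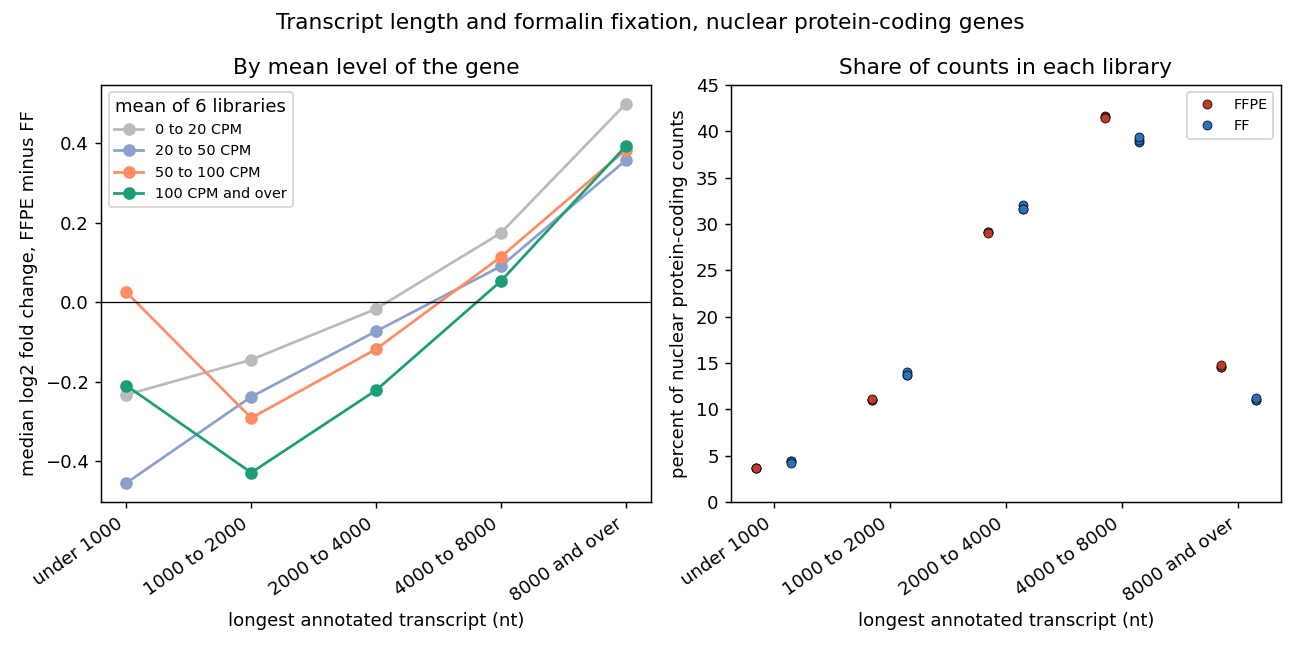
Left, median log2 fold change of FFPE over FF by length of the longest annotated transcript (nt) of nuclear protein-coding genes, 1 line for each range of mean CPM over the 6 libraries. Right, percent of nuclear protein-coding counts in each length class, with 1 point per library (FFPE red, left; FF blue, right); the class of 8000 nt and over lies at 14.6% to 14.8% in FFPE and at 10.95% to 11.2% in FF.

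Of 18 tested genes of urothelial differentiation, 8 fell in FFPE, 0 rose and 10 were not called, and their median log2 fold change was -0.65. The keratins of simple epithelia had the largest falls of the list. Krt18 had 251, 276 and 278 CPM in the FFPE libraries, against 1016, 965 and 997 CPM in the FF libraries (log2 fold change -1.89 ± 0.12 (SE), adjusted p = 6.47e-09). Its partner Krt8 had 155, 128 and 123 CPM in the FFPE libraries, against 382, 491 and 439 CPM in the FF libraries (log2 fold change -1.69 ± 0.17 (SE), adjusted p = 3.23e-06), and Krt7 had 405, 368 and 347 CPM in the FFPE libraries, against 947, 1066 and 1121 CPM in the FF libraries (log2 fold change -1.48 ± 0.12 (SE), adjusted p = 1.94e-07). In all 3 the highest FFPE library lay far below the lowest FF library, and they were called in all 6 fits with a library left out. The uroplakins, the proteins of the plaques on the bladder's inner surface, were not all called. Upk1b had 1151, 1025 and 1144 CPM in the FFPE libraries, against 1692, 1799.7 and 1836 CPM in the FF libraries (log2 fold change -0.68 ± 0.09 (SE), adjusted p = 0.000117), whereas Upk2 had 412, 296 and 316 CPM in the FFPE libraries, against 327, 437 and 389.8 CPM in the FF libraries, with overlapping groups (adjusted p = 0.727). Summed over the whole list of 19 genes, CPM (here of the unscaled library total) were 8052, 8106 and 7491 in FFPE and 12203, 12714 and 12362 in FF. In bulk RNA, fewer cells of a type and less RNA per cell cannot be told apart. Neither can be told apart here from effects of preservation or extraction kit on the RNA recovered.

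Some basal and junctional genes were lower as well. Of 11 basal urothelium genes tested, 2 fell and 0 rose. Krt15 had 216, 205 and 159 CPM in the FFPE libraries, against 605, 472 and 543 CPM in the FF libraries (log2 fold change -1.48 ± 0.17 (SE), adjusted p = 1.16e-05), and Krt5, the basal keratin, had 244, 480.4 and 346 CPM in the FFPE libraries, against 786, 714 and 727 CPM in the FF libraries (log2 fold change -1.06 ± 0.18 (SE), adjusted p = 0.00159). Of 16 genes of epithelial junctions, 3 fell and 0 rose: the desmosomal plakin Dsp, with -0.72 (adjusted p = 0.0122), E-cadherin (Cdh1), with -0.75 (adjusted p = 0.00622), and beta-catenin (Ctnnb1), with -0.62 (adjusted p = 0.00348) on the log2 scale. The call of Dsp stood in 2 of 6 fits with a library left out, the other 2 calls in all 6.

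Some collagen genes of fibroblasts were higher. Of 11 fibroblast genes tested, 4 rose and 1 fell. Col1a1, the alpha 1 chain of type I collagen, had 5292, 5161 and 5085 CPM in the FFPE libraries, against 3164, 3080.3 and 2903 CPM in the FF libraries (log2 fold change 0.76 ± 0.06 (SE), adjusted p = 1.46e-07). Col1a2 had 4195, 3887 and 3886 CPM in the FFPE libraries, against 2631, 2419 and 2530.0 CPM in the FF libraries (log2 fold change 0.66 ± 0.07 (SE), adjusted p = 4.54e-06), and Col6a1 rose by 0.76 (adjusted p = 0.0049) on the log2 scale. Col3a1 rose by 0.28 (adjusted p = 0.0401) and Fbln1 fell by 0.56 (adjusted p = 0.0266), calls that stood in none of the 6 fits with a library left out. Decorin (Dcn) had 1661, 1479 and 1439 CPM in the FFPE libraries, against 1714, 1712 and 1768 CPM in the FF libraries and was not called (adjusted p = 0.344). The list of 12 genes, all with counts, summed to 15018 to 15667 CPM in FFPE and 11642 to 12166 in FF. No gene was called by edgeR among 9 smooth muscle, 9 endothelial and 13 leukocyte genes tested. At an unadjusted p under 0.05 these lists had 2, 0 and 2 genes, and DESeq2 called 0, 0 and 1. All genes of these lists had counts. The smooth muscle list summed to 336 to 388 CPM in FFPE and 262 to 320 in FF, the endothelial list to 253 to 376 in FFPE and 283 to 359 in FF, and the leukocyte list to 414 to 434 in FFPE and 451 to 491 in FF. The part of these cells in the results on urothelial and collagen genes was not tested.

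**Figure D3:**
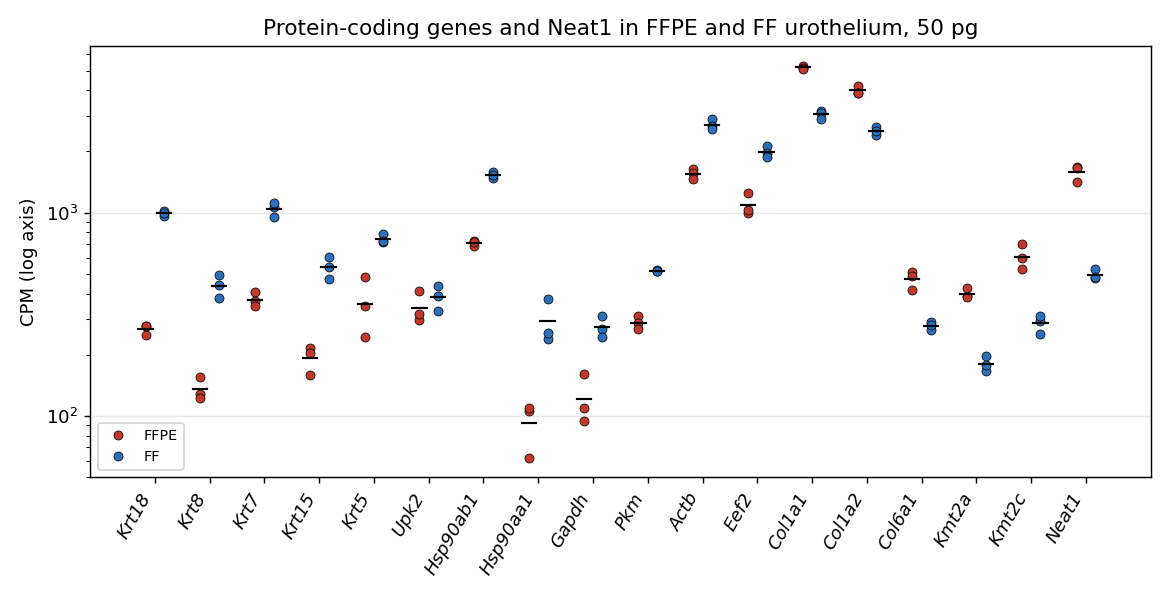
CPM of 17 protein-coding genes and of Neat1 in the 3 FFPE (red, left) and 3 FF (blue, right) libraries of urothelium at 50 pg; points are libraries, bars are means and the axis is logarithmic. The groups overlap for Upk2; for the other 17 genes they are separate, from Krt18 through Eef2 lower in FFPE and from Col1a1 through Neat1 higher.

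Several chaperones and enzymes of glycolysis fell, and no tested member of either list was called higher. A positive log2 fold change was seen in 1 heat shock gene and 2 genes of glycolysis. Of 13 heat shock genes 7 fell, with a list median of -0.97. Hsp90aa1 had 62.3, 105 and 109 CPM in the FFPE libraries, against 378, 239.9 and 257 CPM in the FF libraries (log2 fold change -1.66 ± 0.24 (SE), adjusted p = 0.000256), and Hsp90ab1, the constitutive form of HSP90, had 726, 683 and 716 CPM in the FFPE libraries, against 1487, 1585 and 1524 CPM in the FF libraries (log2 fold change -1.11 ± 0.10 (SE), adjusted p = 4.59e-07). Hspa8, the constitutive HSP70, fell as well, with -0.70 (adjusted p = 0.00233). The inducible Hspa1a had 19.7, 31.2 and 14.5 CPM in the FFPE libraries, against 46.5, 43.5 and 35.7 CPM in the FF libraries. Every FFPE library was thus below every FF library, but the gene was not called (adjusted p = 0.358). The 2 genes are therefore not shown to differ in their change. Of 15 genes of glycolysis 5 fell, with a median of -0.79. Gapdh had 94.2, 109 and 162 CPM in the FFPE libraries, against 267, 244 and 308 CPM in the FF libraries (log2 fold change -1.17 ± 0.22 (SE), adjusted p = 0.00321), and Pkm, pyruvate kinase, had 309.6, 286 and 268 CPM in the FFPE libraries, against 516, 523 and 514 CPM in the FF libraries (log2 fold change -0.85 ± 0.14 (SE), adjusted p = 0.00115). Both lactate dehydrogenase genes fell, Ldhb with -1.41 (adjusted p = 9.27e-05) and Ldha with -0.94 (adjusted p = 0.0142). With 1 library left out, the calls numbered 3 to 5 for heat shock and 3 to 5 for glycolysis.

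Genes often used as references were among the falls. Actb had 1634, 1560.4 and 1463 CPM in the FFPE libraries, against 2877, 2672 and 2569.9 CPM in the FF libraries (log2 fold change -0.80 ± 0.08 (SE), adjusted p = 3.50e-06), and Gapdh fell as given above. Of the 15 housekeeping genes tested, 4 fell and 0 rose, with a median of -0.59; Ywhaz had 529.8, 434 and 360.0 CPM in the FFPE libraries, against 402, 504 and 494 CPM in the FF libraries and Polr2a had 94.5, 155 and 155 CPM in the FFPE libraries, against 138, 121 and 100.0 CPM in the FF libraries, with overlapping groups in both (adjusted p = 0.889 and 0.838). Of 26 translation factors 6 fell and 1 rose. Eef2, the elongation factor of translocation, had 1255, 993 and 1034 CPM in the FFPE libraries, against 2134, 1973 and 1868 CPM in the FF libraries (log2 fold change -0.86 ± 0.10 (SE), adjusted p = 2.27e-05), and Eif3c, a subunit of the initiation factor eIF3, had 75.8, 92.1 and 29.3 CPM in the FFPE libraries, against 250.1, 218 and 174 CPM in the FF libraries (log2 fold change -1.70 ± 0.31 (SE), adjusted p = 0.00314). Of 79 cytosolic ribosomal protein genes 11 fell and 3 rose, with a median of -0.12. Rps24 was among the falls, with -0.92 (adjusted p = 0.001), and Rps21 was among the rises, with 0.86 (adjusted p = 0.0176). Of 77 nuclear genes of oxidative phosphorylation 4 fell and 0 rose, with a median of -0.51, and of 23 detoxification genes 7 fell and 0 rose. Gstm1, a glutathione transferase, had 8454, 8808 and 8376 CPM in the FFPE libraries, against 10935, 11008 and 10767 CPM in the FF libraries (log2 fold change -0.35 ± 0.04 (SE), adjusted p = 4.47e-05). In the proteasome list of 37 genes, 0 were called by edgeR; the median was -0.76, 15 were lower at an unadjusted p under 0.05 and DESeq2 called 10.

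Histone genes of the replication-dependent kind, whose messages lack a poly(A) tail, were lower in FFPE where they were called. Of 29 tested, 5 fell and 0 rose, with a median of -1.23. The 29 include H1f0, a linker histone outside this kind, which had 424 counts in FFPE and 242 in FF and was not called. Hist1h1c, a linker histone, had 18.7, 5.99 and 31.7 CPM in the FFPE libraries, against 70.6, 69.6 and 81.4 CPM in the FF libraries (log2 fold change -1.98 ± 0.49 (SE), adjusted p = 0.0262). Hist1h2bg had 1.73, 4.99 and 2.42 CPM in the FFPE libraries, against 15.7, 32.8 and 27.9 CPM in the FF libraries (log2 fold change -3.03 ± 0.81 (SE), adjusted p = 0.0406). Hist1h2ac had no count in FFPE and 7.06, 4.35 and 18.6 CPM in FF, which makes it at least 31.6-fold lower against a floor of 3 counts over the FFPE group. With 1 library left out, 0 to 4 genes of the list were called, and 0 without FF library 1 or FF library 3. These need not be the same genes. Hist1h1c and Hist1h2bg were each called in 1 of the 6 such fits and Hist1h2ac in 0. No gene was called among 20 cell cycle genes, 15 immediate early genes, 10 p53 targets, 10 interferon genes and 10 MHC class I genes. At an unadjusted p under 0.05 these lists had 2, 0, 1, 0 and 0 genes, and DESeq2 called 1, 0, 0, 0 and 0.

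**Figure D4:**
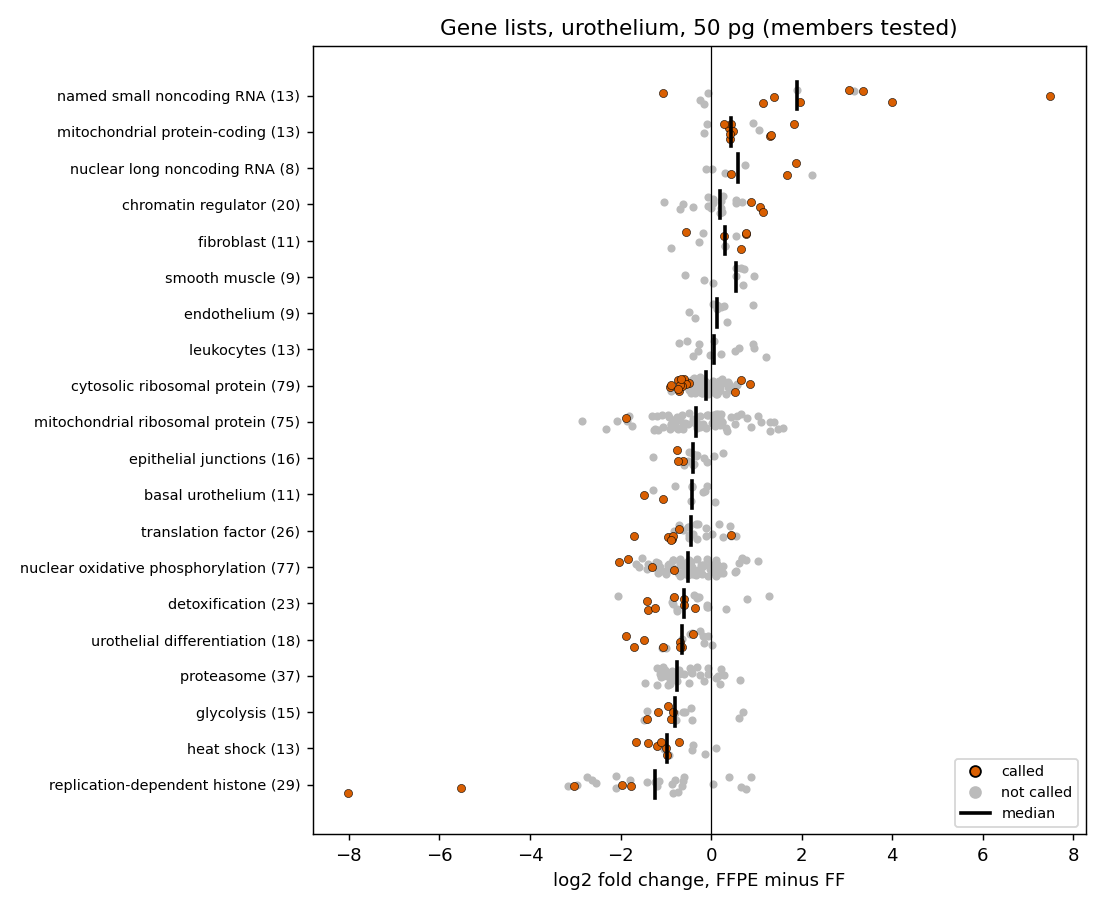
Log2 fold change of FFPE over FF for the tested members of 20 gene lists in urothelium at 50 pg, with the number tested in brackets, called genes in orange, genes not called in grey and the list median as a bar. Among the lists shown, medians run from -1.23 for the histone list, which includes H1f0, to 1.91 for named small noncoding RNAs. Hist1h2ac, at the far left, has no count in FFPE, so its fitted value depends on the prior count.

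Apart from the small RNAs and the repeat-like models, the largest rises among the genes named by rule were those of 4 protein-coding genes. Col10a1 had 9.70, 20.96 and 37.1 CPM in the FFPE libraries, against 0, 2.32 and 0.775 CPM in the FF libraries (log2 fold change 4.38 ± 1.11 (SE), adjusted p = 0.0325). Lrrc4 had 18.7, 10.7 and 41.97 CPM in the FFPE libraries, against 0.321, 1.45 and 1.94 CPM in the FF libraries (log2 fold change 4.24 ± 0.99 (SE), adjusted p = 0.0187), Gpr21 had 51.2, 19.2 and 15.7 CPM in the FFPE libraries, against 0, 0.580 and 4.26 CPM in the FF libraries (log2 fold change 4.18 ± 1.06 (SE), adjusted p = 0.0309) and Evi2a had 14.2, 33.2 and 29.6 CPM in the FFPE libraries, against 0.321, 2.03 and 3.49 CPM in the FF libraries (log2 fold change 3.72 ± 0.92 (SE), adjusted p = 0.0265). In each of these genes no FF library exceeded 4.26 CPM, and the FFPE libraries spanned more than a 2-fold range. With 1 library left out, these calls stood in 2 (Col10a1), 3 (Lrrc4), 2 (Gpr21) and 2 (Evi2a) of 6 fits. Col10a1 lies within an intron of Nt5dc1, Lrrc4 within Snd1 and Evi2a within Nf1, each on the strand opposite to the host, and Gpr21 lies within Rabgap1 on the same strand. This position was noticed after the values were seen. Of 370 tested protein-coding genes that lie within an intron of another gene, 9 rose, these 4 among them, and 4 fell. Of 11380 others 182 rose (1.60%) and 202 fell (1.78%). With the host on the same strand 1.98% rose and on the opposite strand 2.60%, beside 2.33% of all tested genes. At 5 to 20 CPM 7 of 156 nested genes rose (4.49%) and 5 of 3606 others (0.139%). The 4 genes above are among these 7, so this split is not independent of the genes that prompted it. All 7 had few FF counts and passed the low-count filter only through the FFPE libraries. At 50 CPM and over 1 of 74 nested genes rose (1.35%) and 165 of 3760 others (4.39%). The part of reads from the host genes in these values was not tested.

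Among the largest falls named by rule, N6amt1, a methyltransferase subunit, had 1.04, 8.48 and 4.83 CPM in the FFPE libraries, against 41.7, 36.6 and 42.6 CPM in the FF libraries (log2 fold change -3.04 ± 0.68 (SE), adjusted p = 0.0141). Acaa2, an enzyme of mitochondrial fatty acid oxidation, had 12.5, 29.4 and 8.15 CPM in the FFPE libraries, against 102, 53.1 and 86.8 CPM in the FF libraries (log2 fold change -2.26 ± 0.47 (SE), adjusted p = 0.00834). Sel1l3 had 23.9, 9.73 and 8.15 CPM in the FFPE libraries, against 101, 47.6 and 62.4 CPM in the FF libraries (log2 fold change -2.34 ± 0.49 (SE), adjusted p = 0.00834). Cyc1, cytochrome c1 of respiratory complex III, had 8.66, 9.48 and 12.7 CPM in the FFPE libraries, against 39.8, 31.04 and 56.6 CPM in the FF libraries (log2 fold change -2.04 ± 0.53 (SE), adjusted p = 0.0356). These calls stood in 3 (N6amt1), 5 (Acaa2), 5 (Sel1l3) and 0 (Cyc1) of the 6 fits with a library left out. The other genes in this set (Abracl, Urah, Plrg1, Ddx54 and Gtpbp4) were called in at most 2 of them, with log2 fold changes of -3.62 to -1.94.

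Repeat libraries were less alike in FFPE than in FF. Over 16797 genes averaging 1 CPM or more, Pearson's r of log2(CPM + 1) was 0.798 to 0.811 between FFPE libraries and 0.870 to 0.887 between FF libraries. Between an FFPE and an FF library it was 0.798 to 0.822, which overlaps the range within FFPE. The biological coefficient of variation estimated within a group was 0.880 in FFPE and 0.647 in FF. For genes at 20 to 50 CPM, the median coefficient of variation over 3 libraries was 38.96% in FFPE and 30.3% in FF, and at 500 CPM and over it was 7.44% in FFPE and 6.57% in FF. At the same kit and tissue but 2 ng of RNA, the within-group value was 0.101 in FFPE and 0.0626 in FF. No pair of repeat libraries differed by as little as sampling noise, the chi-square per degree of freedom being 11.7 to 22.9.

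The number of genes detected did not separate the groups. At an equal depth of 2547239 counts, 13827, 14064 and 13964 genes had at least 5 counts in the FFPE libraries, against 13675, 14231 and 14073 in the FF libraries (two-sided exact permutation p = 0.8). Detection in all 3 libraries of a group held for 11246 genes in FFPE and 11721 in FF, of 16928 and 16460 detected in any (66.4% in FFPE and 71.2% in FF). There were 125 genes detected in all 3 FFPE and no FF library, and 120 in all 3 FF and no FFPE library.

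The same kit was also used on FFPE and FF urothelium at 250 pg and 2 ng, and the same contrast was made in BC57, a mouse bladder cancer cell line. At 2 ng, where 4975 of 13354 genes were called (37.3%; 19.3% higher and 17.9% lower), 300 of the 313 genes that rose at 50 pg were called higher, and 212 of the 221 that fell were called lower, with 0 called in the opposite direction. These are 11.6% and 8.86% of the genes called higher and lower at 2 ng. At 250 pg, with 448 genes called (3.30%; 1.86% higher and 1.45% lower), 163 of the 313 and 114 of the 221 were called in the same direction. The FF libraries at 250 pg were uneven, with r of 0.806 to 0.934 between them. The test of the difference itself, an interaction in edgeR over 12 libraries, called 0 of 14837 genes between 50 pg and 2 ng and 0 of 15138 between 50 pg and 250 pg. At an unadjusted p under 0.05 these tests had 875 (5.90%) and 583 (3.85%) genes, and DESeq2 called 11 and 1. At 2 ng Rny1 averaged 1556 CPM in FFPE and 95.4 CPM in FF, with a log2 fold change of 4.01 beside 3.36 at 50 pg. Krt18 averaged 267 CPM in FFPE and 994 CPM in FF at 2 ng, with -1.89 at both inputs. In long transcripts of 8000 nt or more the median log2 fold change was 0.33 at 2 ng, 0.28 at 250 pg and 0.39 at 50 pg.

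In BC57 cells at 50 pg, 482 of 12160 genes were called (3.96%; 2.56% higher and 1.41% lower), and 112 of the 313 rises and 64 of the 221 falls were called in the same direction, with 1 and 3 called in the opposite one. The interaction called 66 of 15361 genes (0.430%), 20 with a more positive (0.130%) and 46 with a more negative change in urothelium (0.299%). At an unadjusted p under 0.05 it had 1362 genes (8.87%). Rn7sk, lower in FFPE urothelium, averaged 7021 CPM in FFPE and 5911 CPM in FF of BC57 cells, and mt-Ty averaged 1879 CPM in FFPE and 1123 CPM in FF. Neat1 averaged 2716 CPM in FFPE and 162 CPM in FF of BC57 cells, a log2 fold change of 4.06 beside 1.68 in urothelium. Krt8 and Krt18 changed by -0.88 and -1.01 in BC57, and the median of long transcripts of 8000 nt or more was 0.40. Cell line and tissue differ in many ways besides fixation, and their libraries hold different genes at measurable levels.

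**Figure D5:**
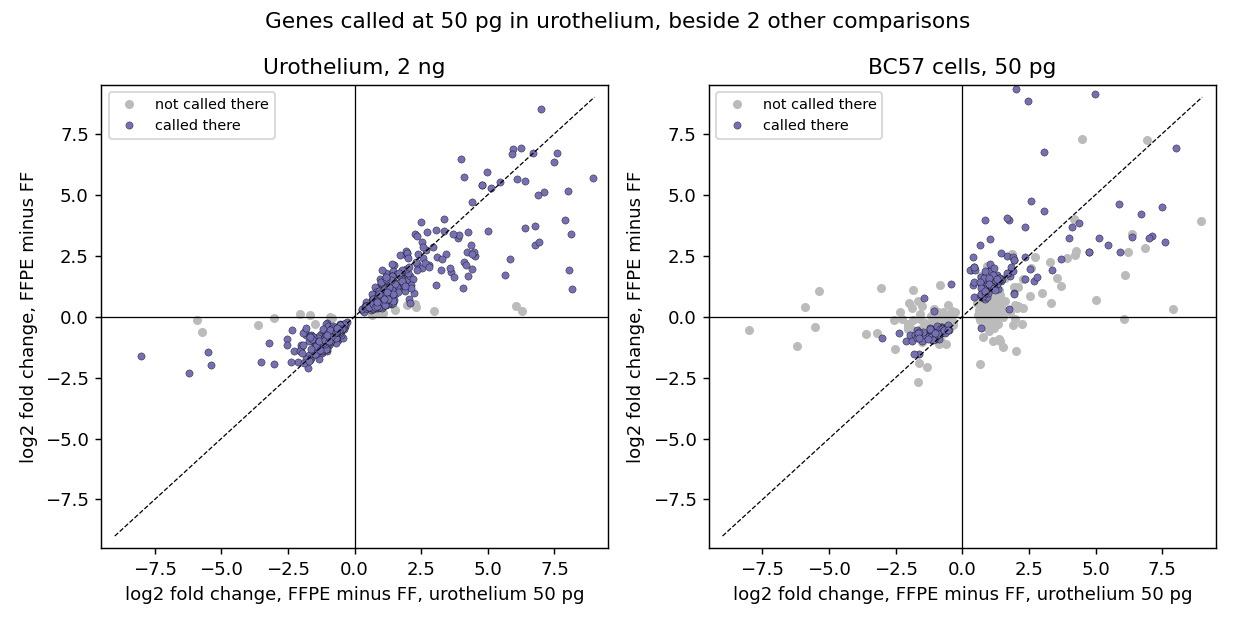
Log2 fold change of FFPE over FF at 50 pg in urothelium (horizontal axes) against that in urothelium at 2 ng (left) and in BC57 cells at 50 pg (right), for genes called at 50 pg in urothelium and tested in the other comparison. Purple points were called there as well, grey points were not, and the dashed line marks equal values; 0 genes were called in the opposite direction at 2 ng and 4 in BC57 cells.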

How the data were processed

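Read counts per gene were deposited by the authors as a table of raw counts. STAR, SAMtools, featureCounts and the build mm10 are named in the submitters' processing notes, without versions; no source used here gives the strand setting or the treatment of reads in several genes. A table of log2 values deposited by the authors, whose scaling no source used here gives, served as an alternative; in all 36 Ovation libraries its values equal, to within 1e-06, log2 of 1 plus 1000 times the count over the library's 75th percentile of counts above 0. Of 39179 gene IDs, 37693 matched GENCODE M21 for names, types and lengths; the others held at most 0.999% of a library. Counts of 2547239 to 4067831 per library limit the precision of low genes, and any interval or floor covers counting error only.

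Genes were filtered with filterByExpr (minimum count 10), scaled by TMM and tested with edgeR 4.0.16 (quasi-likelihood, R 4.3.3) in the 3 FFPE and 3 FF libraries, with Benjamini-Hochberg adjustment over all 13413 genes and a threshold of 0.05. Fold changes are log2 of FFPE over FF. Differences between comparisons were interaction terms over 12 libraries. DESeq2 1.42.0 and limma 3.58.1 gave alternatives. Tested on simulated counts for this comparison with 13413 genes, edgeR recovered 80% of 100 genes changed by 2 and 99% of 100 changed by 3 on the log2 scale, with 6 false calls. For single values, exact permutation tests (two-sided) were run.

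Genes named were the 12 largest called rises and falls averaging 20 CPM or more in whichever group was higher and showing no overlap between groups, the 4 largest changes of genes averaging 5 CPM or more in whichever group was higher, in each of 38 gene lists, all members of lists of 15 or fewer, the 10 highest genes of each group, the 6 largest differences per direction of each interaction, and Gapdh, Actb, Upk2, Neat1 and Malat1. Genes and lists were chosen with earlier results of these data known. Genes outside the rule (long transcripts, nested genes, Gm25018, Gm26917, Ccdc107, Upk1b) were chosen after their values were seen. Some sequences are not reported here.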

Additional observations from a re-analysis of the deposited data

Results flagged for a closer look

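The change with fixation at 50 pg differed between urothelium and BC57 cells for 66 genes by an interaction test in edgeR. Differences are log2 fold changes in urothelium minus those in BC57, and where a group had no or almost no counts the fitted value depends on the prior count and is no bound. The positive differences named by rule were 8.51 for Camk2n1, 7.82 for Col27a1, 6.37 for Adcy9, 6.14 for Cygb, 6.01 for Gpld1 and 5.47 for Rcbtb2. All 6 were at or near 0 CPM in FFPE libraries of BC57. Cygb, a globin, averaged 79.9 CPM in FFPE and 38.9 CPM in FF urothelium, while in BC57 cells it averaged 0.0763 CPM (FFPE) and 3.58 CPM (FF).

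The negative differences named by rule were -4.32 for mt-Ta, -4.998 for Mthfd2, -5.15 for Hist1h4j, -6.77 for Foxm1, -7.42 for Hist1h2ac and -7.47 for Kif22. For mt-Ta, a mitochondrial tRNA, means were 88.3 CPM in FFPE and 45.5 CPM in FF urothelium, while in BC57 cells they were 361 CPM (FFPE) and 9.13 CPM (FF). Foxm1, a transcription factor of dividing cells, averaged 0 CPM in FFPE and 5.17 CPM in FF urothelium, while in BC57 cells it averaged 116 CPM (FFPE) and 142 CPM (FF). The other 4 were likewise near 0 in FFPE urothelium and high in both groups of BC57.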

How the results depend on the processing

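Against 534 calls, DESeq2 gave 1368 and a fit over all 36 Ovation libraries 1757, of which 45.5% were higher, beside 58.6% of the 534. With 1 library left out there were 265 to 369 calls. Other settings gave 447 to 692, and 49.04% were higher when scaled to library totals (522 calls). The labels do not say whether replicate numbers pair the libraries. Correlations of deviations were 0.0029, 0.0095 and 0.0308 at equal numbers, and -0.0302 to 0.0196 at unequal ones. With libraries as noisy as these, such values cannot exclude a shared preparation. With the replicate number as a block, there were 513 calls. Of the 104 named genes with a call, 24 to 35 lost it with 1 library left out, and 60 kept it in all 6 such fits. The difference from 2 ng had 0 calls, 11 by DESeq2, 15 without the low-count filter and 0 to 1 with 1 library left out. That from 250 pg had 1 by DESeq2 and 16 without the filter. That from BC57 had 142 by DESeq2, 206 without the filter, 39 after thinning to equal depth and 57 to 71 with 1 library left out. Differences in share (FFPE minus FF, percentage points) moved outside mitochondrial and repeat-like genes to -2.80 for protein-coding, 1.24 for long noncoding and 0.158 for pseudogenes. Outside the 10 highest genes they were 0.552 for long noncoding, 2.06 for small noncoding, 0.510 for 5S-type, 0.533 for mitochondrial protein-coding, -0.175 for mitochondrial tRNA, 0.148 for pseudogenes and 0.482 for repeat-like genes, beside -0.400 for the last over all genes. Without thinning, FFPE libraries had 190.0 more detected genes on average. The median fold change at 8000 nt and over minus that under 1000 nt was 0.49 by mean transcript length and 0.65 in protein-coding genes, beside 0.23 over all genes. Mean correlations were 0.685 within FFPE, 0.783 within FF and 0.698 between FFPE and FF on the deposited log2 values, and 0.789 within FFPE, 0.864 within FF and 0.764 between them for genes of at least 10 CPM. The cause of these shifts was not tested.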
